A study of Mus musculus with 6 samples.

Results

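The genes described here build and regulate the ring-shaped protein machines that fold chromosomes: the boundary factor CTCF and its loop partner LDB1, the cohesin ring with its loaders, releasers and acetylases, condensin I and II, the SMC5/6 complex, the SMC-like protein SMCHD1, and the DNA topoisomerases TOP1 and TOP2B. They were matched by gene symbol in the probe annotation of the array by a rule that names no measured value, though the set was drawn up with earlier results of these data known, and number 31 of the 19057 genes that have a probe. They are read by 84 of 45281 probes, of which 70 probes, covering all 31 genes, were bright enough to be among the 19240 probes tested. B cells that recirculate through the spleen's follicles were selected with an antibody to CD23 from the spleens of 3 C57BL/6 mice of genotype yy1 f/f, in which both copies of the gene for the zinc finger protein YY1 carry sites for Cre recombinase. Each spleen's cells were split into a TAT-CRE culture, given Cre protein fused to the cell-penetrating TAT peptide, and a mock culture, and both were grown with LPS, IL4 and OPI in RPMI medium with 20% FBS for 72 hours. RNA was read on Illumina bead arrays, which gave 3 TAT-CRE and 3 mock arrays, and the stated aim was to learn what YY1 does in antibody class switching. Every group carries the floxed alleles, and TAT-CRE arrays of cells without them were not analysed here, so exposure to the Cre protein and loss of Yy1 cannot be told apart.

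Cohesin is a ring of SMC1A, SMC3 and RAD21 with a STAG subunit that extrudes loops of DNA and holds sister chromatids together. CTCF, bound at its sites, stops the moving ring, and such loops bring distant enhancers, promoters and switch regions of the immunoglobulin heavy chain locus into contact in B cells. Condensin compacts chromosomes for division, SMC5/6 acts in DNA repair and on replication intermediates, and topoisomerases release the twist that moving enzymes put into DNA. YY1 can itself bridge enhancers and promoters, and in mouse B lineage cells it has been found together with condensin and cohesin subunits at the Igκ locus.

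Yy1 was read at an intensity of 153.2, 140.4 and 133.8 in the TAT-CRE cells of mice 1, 2 and 3, against 455.0, 408.9 and 439.2 in the mock cells of the same mice. The TAT-CRE values were not above background on any array, so the difference is a bound, at least 4.20-fold lower in TAT-CRE cells (limma adjusted p 1.80e-07). Arrays of one group correlated at 0.989 to 0.990 for TAT-CRE and 0.974 to 0.983 for mock. Of 4 B cell marker genes with a probe, 3 were above background (Cd79b, Ms4a1 and Fcer2a, which encodes CD23), and their list summed to intensities of 28471 to 33288 in TAT-CRE and 22476 to 29851 in mock cells. These genes did not all differ one way: the brightest probes of Cd79b and Ms4a1 gave differences of 0.52 and 0.51 on the log2 scale without passing (adjusted p 0.0737 and 0.0880), whereas Fcer2a was lower on 1 of its 3 tested probes, ILMN_2652877 (1040.8, 1051.3 and 984.9 in TAT-CRE cells, 1808.3, 1458.9 and 1254.4 in mock cells, -0.58, adjusted p 0.0465, and 0.0531 without the replicate block), and gave -0.25 and -0.07 on the other two. Of 6 T cell markers, Cd4 and Cd8b1 were above background and Cd3d, Cd3e, Cd3g and Cd8a were not, with sums of 5309 to 6033 in TAT-CRE and 4469 to 5610 in mock cells. Most of each sum came from 1 Cd8b1 probe, ILMN_1257694 (3713.7 to 5268.3 over the arrays), and the other Cd8b1 probes were too dim to test. The brightest Cd4 probe lay near background, at 162.0 to 190.7, and was above it on 4 arrays. Of 7 markers of monocytes, macrophages and granulocytes only Adgre1 was above background. The brightest probes of all 7, most of them at background, summed to 1148 to 1197 in TAT-CRE and 1050 to 1110 in mock cells. Both erythroid markers were above background, with sums of 572 to 1077 in TAT-CRE and 574 to 786 in mock cells. Plasma cell markers summed to 17607 to 19203 in TAT-CRE and 16281 to 16755 in mock cells, with Jchain higher (0.64 on the log2 scale, adjusted p 0.0383). The part of other cell types in the results below was not tested. Differences below are TAT-CRE minus mock on the log2 scale, positive where TAT-CRE was higher, from a limma fit that keeps the mouse as a block, and a probe is said to have risen or fallen where its adjusted p was under 0.05. The number of arrays limits the precision, and in these bulk cultures fewer cells of a type and less RNA per cell cannot be told apart.

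Most of the machinery gave no call. Of the 70 member probes, 2 rose (2.86%, against 6.55% of all probes tested), 3 fell (4.29%, against 7.14% of all) and 65 did not pass. All 3 that fell were probes of Top1, and the 2 that rose were 1 probe each of Smc3 and Nipbl, both in the cohesin group. With no adjustment, 10 member probes had a p under 0.05 and were higher and 4 were lower, that is 14.3% and 5.71%, against 13.2% and 14% of all probes. The groups did not overlap, TAT-CRE higher, on 13 probes (18.6%, against 16.4% of all) and, TAT-CRE lower, on 5 (7.14%, against 15.5%). The median difference over member probes was 0.086, against 0.0051 over all probes tested, with a range of -0.93 to 0.77, and 44 of 70 were positive, against 9727 of 19240. TAT-CRE was higher in all 3 mice on 21 member probes (30%, against 24% of all) and lower in all 3 on 11 (15.7%, against 23%). Without the replicate block, 0 member probes rose (against 6.16% of all) and 3 fell (against 6.4% of all).

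**Figure D1:**
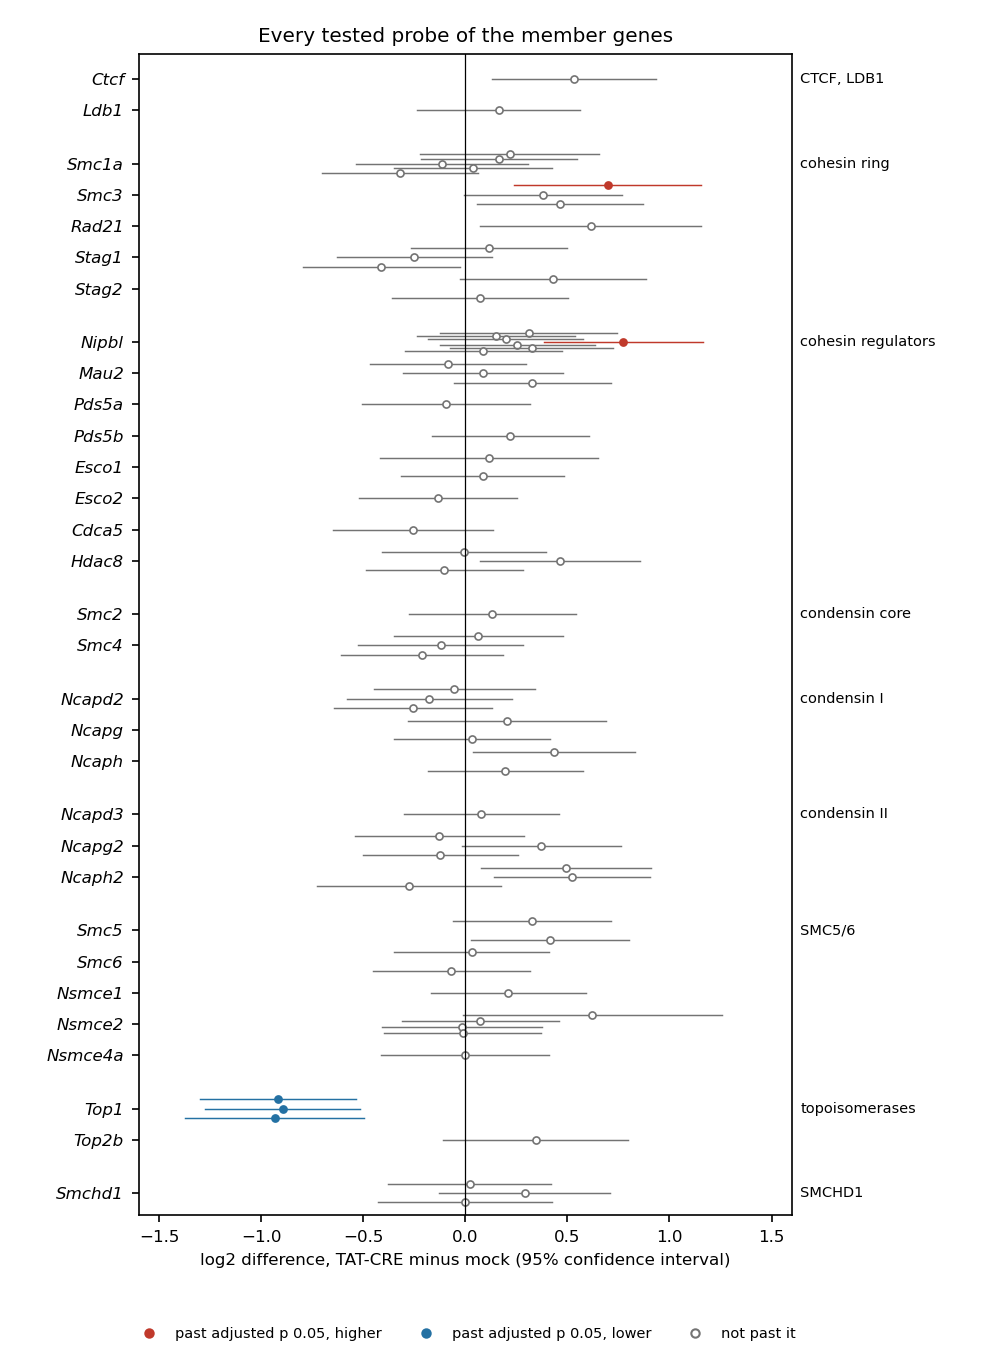
Log2 difference (TAT-CRE minus mock) of every tested member probe with its 95% confidence interval, genes grouped by complex. The 3 Top1 probes lie together between -0.93 and -0.89, 1 Nipbl probe and 1 Smc3 probe lie at 0.77 and 0.70, and the other probes are drawn open because they did not pass an adjusted p of 0.05.

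Top1, which encodes the topoisomerase that relieves supercoils by cutting and resealing 1 DNA strand, fell in TAT-CRE cells on all 3 of its probes. Lower Top1 has been linked, in mouse B cells, to the cutting of switch region DNA. These arrays read RNA, and neither TOP1 protein nor such cutting was measured here. On ILMN_2521065 the intensities were 701.8, 769.3 and 781.3 in TAT-CRE cells against 1201.3, 1444.4 and 1368.2 in mock cells of mice 1, 2 and 3. Every TAT-CRE array lay below every mock array, and the difference was -0.92 (SE 0.18, 95% interval -1.30 to -0.54, adjusted p 0.00262), a level 1.89-fold lower.

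ILMN_1215049 gave 836.5, 656.9 and 709.2 in TAT-CRE cells against 1460.8, 1159.2 and 1227.7 in mock cells, a difference of -0.89 (adjusted p 0.00314). The 3 mice differed little on it, at -0.88, -0.92 and -0.88. ILMN_1232251 gave 582.0, 521.2 and 590.6 in TAT-CRE cells against 806.3, 1322.2 and 921.5 in mock cells, a difference of -0.93 (adjusted p 0.00625). Here the mock array of mouse 2 stood highest, and the mice gave -0.54, -1.52 and -0.74. Without the mouse as a replicate block its adjusted p was 0.0120, and all 3 probes stayed past the threshold. Without the block and without the TAT-CRE array of mouse 2 as well, this probe stood at -0.87 with an adjusted p of 0.0583. Of 969 genes on the array with exactly 3 tested probes, 20 (2.06%) fell on all 3.

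Top2b encodes the topoisomerase that cuts both DNA strands, including at loop anchors bound by CTCF and cohesin. Its single probe read 1840.2, 1511.3 and 1528.8 in TAT-CRE cells and 1782.9, 791.3 and 1561.7 in mock cells, and did not pass (0.35, adjusted p 0.322). TAT-CRE and mock lay close in mice 1 and 3, and mock 2 stood apart on the low side.

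**Figure D2:**
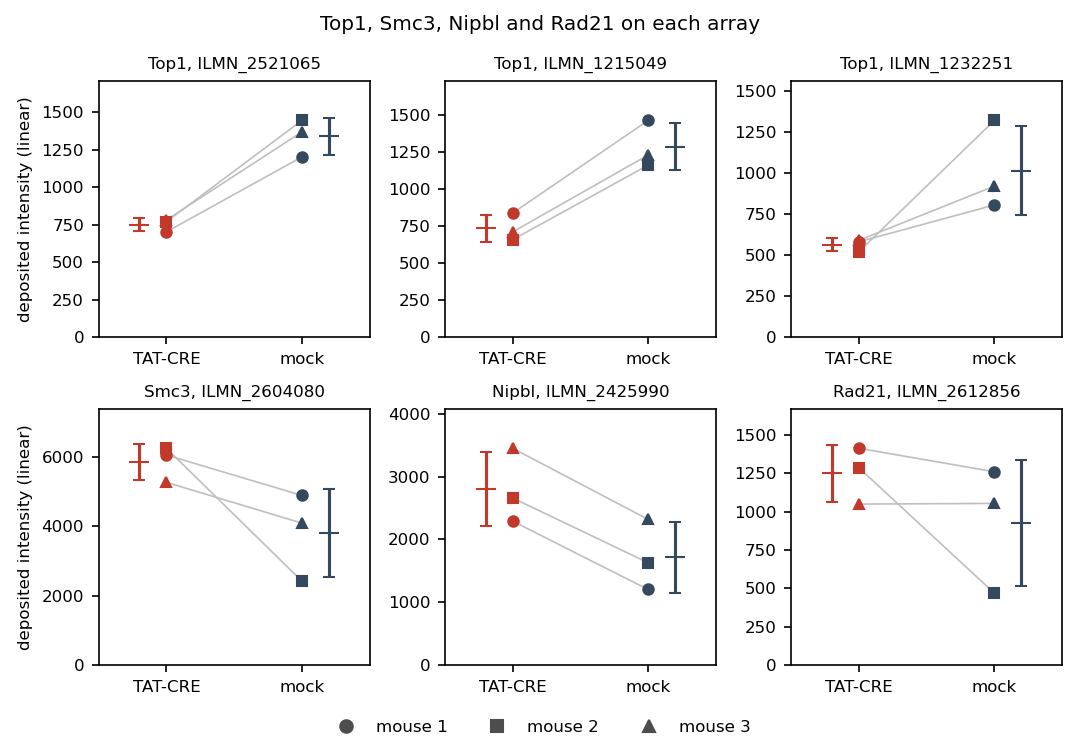
Deposited intensity (linear scale) on each array for the 5 called member probes and for Rad21, with TAT-CRE on the left and mock on the right, lines joining the cultures of 1 mouse, and bars giving the mean and SD of 3 arrays. TAT-CRE lies below mock in all 3 mice on each Top1 probe, whereas the mock 2 array stands lowest for Smc3 and Rad21.

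Ctcf gave intensities of 2142.2, 2196.8 and 1927.2 in TAT-CRE cells and 1816.4, 1229.4 and 1426.6 in mock cells. The groups did not overlap, but the probe did not pass (0.53, 95% interval 0.13 to 0.94, adjusted p 0.0749). It passed in 4 of 19 other settings, with adjusted p between 0.0266 and 0.0456 in those, 1 of them the fit without the block and without the mock array of mouse 1 (0.69). Ldb1, whose protein joins distant DNA elements through LIM-domain partners, read 8306.9, 8874.4 and 8709.3 in TAT-CRE cells and 9364.2, 7036.4 and 6964.2 in mock cells (0.16, adjusted p 0.629).

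Of the 14 tested probes of the cohesin ring, 1 rose (7.14%, against 6.55% of all probes) and 0 fell, with a median difference of 0.14. That probe reads Smc3, the ring's SMC subunit whose acetylation locks cohesin onto chromatids. On ILMN_2604080 its intensities were 6053.2, 6248.6 and 5265.9 in TAT-CRE cells and 4888.9, 2417.6 and 4089.4 in mock cells, means of 5856 ± 520 and 3799 ± 1261 (SD, n = 3 each). The groups did not overlap, and the difference was 0.70 (SE 0.22, 95% interval 0.24 to 1.16, adjusted p 0.0418), a level 1.62-fold higher. Mouse 2 gave 1.40, against 0.31 in mouse 1 and 0.37 in mouse 3, and without mouse 2 the difference was 0.34 (adjusted p 0.369). Without the replicate block that pairs the cultures of a mouse, the adjusted p was 0.0788.

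The 2 dimmer tested Smc3 probes also had positive differences but did not pass. ILMN_2602761 read 412.2, 461.2 and 472.2 in TAT-CRE cells and 317.6, 421.9 and 366.4 in mock cells (0.38, adjusted p 0.192). ILMN_2678413 read 305.4, 302.1 and 282.2 in TAT-CRE cells and 216.8, 238.5 and 269.9 in mock cells (0.47, adjusted p 0.123). The low mock 2 value of the bright probe was not shared by either: on the first mock 2 was the highest mock array, and on the second it was the middle one.

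Rad21, the subunit that closes the ring and is cut when sister chromatids part, depended on 1 mouse. It read 1414.5, 1287.5 and 1050.0 in TAT-CRE cells and 1261.0, 468.7 and 1054.4 in mock cells. Mouse 2 gave a difference of 1.67, whereas mice 1 and 3 gave 0.18 and -0.01, and the probe did not pass (0.61, 95% interval 0.07 to 1.15, adjusted p 0.128). It passed without mouse 1 (0.83, adjusted p 0.0102) or mouse 3 (0.92, adjusted p 0.0153), and stood at 0.086 without mouse 2. Both passing fits joined mouse 2 with a mouse that gave a far smaller difference, so their adjusted p does not show agreement between mice.

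Smc1a, the second SMC subunit of the ring, had 5 tested probes between -0.32 and 0.22, none past the threshold. On the dimmest, ILMN_1220530 (-0.32, adjusted p 0.270), the groups did not overlap, with TAT-CRE lower, but its values lie near background. The brightest Smc1a probe read 7077.5, 6024.7 and 6834.4 in TAT-CRE cells and 4178.6, 7183.2 and 6225.2 in mock cells (0.22, adjusted p 0.546), with mock 1 low. The STAG subunits decide which sites cohesin dwells at, and neither gene passed. The brightest Stag2 probe read 3919.2, 2973.9 and 3489.3 in TAT-CRE cells and 1863.5, 2625.2 and 3524.9 in mock cells (0.43, adjusted p 0.214), again with mock 1 lowest, whereas on the dimmer Stag2 probe mock 1 was the highest array (1234.0, difference 0.07). The brightest Stag1 probe gave 0.12, and 2 dimmer ones -0.25 and -0.41 (adjusted p 0.732, 0.405 and 0.151).

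Promoter sequence is shown for Top1, which fell, and for Smc3 and Ctcf, which hold a match to the short YY1 motif AANATGGC. The windows are 300 bases of RefSeq sequence on assembly GRCm38.p6, 250 before and 50 after the annotated start, 5′ to 3′ on the + strand, at chr2:160645647-160645946, chr19:53600146-53600445 and chr8:105636288-105636587. Capitals mark a motif match on either strand.
Top1: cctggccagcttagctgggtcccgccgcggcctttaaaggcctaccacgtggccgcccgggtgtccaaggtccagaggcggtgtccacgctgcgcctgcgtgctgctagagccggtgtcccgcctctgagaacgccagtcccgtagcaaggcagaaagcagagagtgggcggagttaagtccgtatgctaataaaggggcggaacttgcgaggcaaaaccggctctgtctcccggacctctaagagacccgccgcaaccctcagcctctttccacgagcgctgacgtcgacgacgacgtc
Smc3: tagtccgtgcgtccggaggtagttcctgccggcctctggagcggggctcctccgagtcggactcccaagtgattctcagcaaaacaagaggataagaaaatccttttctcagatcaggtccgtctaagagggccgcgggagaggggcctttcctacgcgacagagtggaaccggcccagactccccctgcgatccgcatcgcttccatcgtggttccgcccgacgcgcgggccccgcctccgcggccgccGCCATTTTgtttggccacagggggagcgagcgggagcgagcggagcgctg
Ctcf: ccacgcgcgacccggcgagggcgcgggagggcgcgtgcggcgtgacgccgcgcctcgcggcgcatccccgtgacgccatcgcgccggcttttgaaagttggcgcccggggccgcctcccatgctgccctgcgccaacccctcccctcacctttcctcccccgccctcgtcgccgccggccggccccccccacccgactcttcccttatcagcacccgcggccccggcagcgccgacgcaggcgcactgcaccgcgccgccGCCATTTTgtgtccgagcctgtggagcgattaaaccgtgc
The Smc3 match starts at base 1 and the Ctcf match at base 11 after the start, both as the reverse complement, and the Top1 window holds none. Of 24 members with a window, 4 (16.7%) hold AANATGGC on either strand, namely Ctcf, Smc3, Pds5b and Stag1, against 1881 of 27025 genes (6.96%) in the whole table. The windows of Pds5b (difference 0.22) and Stag1 (0.12, -0.25 and -0.41) are not shown. Nipbl and Rad21 are among the members with no window. A longer YY1 consensus, whose matches all contain the shorter motif, is in 0 of the 24 and in 0.755% of all genes. A match describes these letters and does not show that YY1 binds there.

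Of 19 tested probes of the genes that load, release or modify cohesin, 1 rose (5.26%, against 6.55% of all probes) and 0 fell. It reads Nipbl, which encodes the loader that drives loop extrusion by cohesin. On ILMN_2425990 the intensities were 2290.8, 2659.6 and 3451.6 in TAT-CRE cells and 1202.1, 1627.7 and 2318.7 in mock cells, means of 2801 ± 593 and 1716 ± 564 (SD, n = 3 each). Within each mouse TAT-CRE was higher, by 0.99, 0.74 and 0.59, although the groups overlapped. On this probe the intensity rose from mouse 1 to mouse 3 in both groups, an order that other Nipbl probes did not all share. The difference was 0.77 (SE 0.18, 95% interval 0.39 to 1.16, adjusted p 0.00953), a level 1.71-fold higher, and without the replicate block the adjusted p was 0.0599. Without mouse 1 the difference was 0.67 (adjusted p 0.0532).

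The other 6 tested Nipbl probes gave smaller differences of the same sign, 0.09 to 0.33, with adjusted p from 0.287 to 0.808. The brightest, ILMN_1234693, read 3349.6, 5279.3 and 4933.4 in TAT-CRE cells and 3790.4, 3061.3 and 4003.4 in mock cells (0.31, adjusted p 0.357). Groups did not overlap, TAT-CRE higher, on 3 of the 6, against 16.4% of all probes tested. The 6 probes read 1 gene on the same arrays and are not separate evidence. On 1 of the 3, ILMN_2618447, the intensities were 2966.5, 2933.6 and 3157.6 in TAT-CRE cells and 2655.3, 2533.0 and 2748.8 in mock cells (0.20, adjusted p 0.526). The files do not say where in the transcript each probe lies, so whether the called probe reads another isoform was not tested.

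Mau2, the partner of NIPBL in the loader, had 3 tested probes at -0.08, 0.09 and 0.33. Pds5a and Pds5b, whose products help both to release and to hold cohesin, gave -0.10 and 0.22 (adjusted p 0.802 and 0.476). The SMC3 acetylases gave 0.12 and 0.09 for the 2 tested probes of Esco1 and -0.13 for Esco2, and Hdac8, the SMC3 deacetylase, gave -0.01, 0.46 and -0.10 on 3 tested probes. On the Hdac8 probe with 0.46 the groups did not overlap (220.0, 185.7 and 188.8 in TAT-CRE cells, 171.8, 171.5 and 162.3 in mock cells, adjusted p 0.110), but its values lie near background. Cdca5, which encodes sororin, the protector of cohesion after replication, gave -0.26 (777.1, 608.1 and 655.1 in TAT-CRE cells, 1029.4, 727.4 and 660.2 in mock cells, adjusted p 0.407).

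None of the 18 tested condensin probes passed, with differences of -0.28 to 0.52, a median of 0.05 and adjusted p from 0.0655 to 0.933. Before adjustment 3 had a p under 0.05, all higher (16.7%, against 13.2% of all probes tested). Proliferation markers, which mark the dividing cells in which condensin works, are given beside this result: 25 probes were tested, 0 rose and 3 fell (12%, against 7.14% of all probes; 2 of Tk1 at -0.86 and -0.95, and 1 of Mcm5 at -0.79), their median was -0.14, and the brightest probes summed to 65975 to 73923 in TAT-CRE cells and 73830 to 82443 in mock cells. Their part in the condensin values was not tested. The shared core subunits gave 0.13 for Smc2 (383.7, 414.5 and 446.5 in TAT-CRE cells, 383.3, 447.6 and 336.7 in mock cells) and 0.06, -0.12 and -0.21 for 3 probes of Smc4.

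In condensin I, which meets chromosomes after the nuclear envelope breaks down, the kleisin gene Ncaph read 3272.8, 2820.7 and 2783.7 in TAT-CRE cells and 1966.2, 2313.1 and 2367.8 in mock cells. The groups did not overlap, but the probe did not pass (0.43, 95% interval 0.04 to 0.83, adjusted p 0.144), and the second Ncaph probe gave 0.20. The 3 Ncapd2 probes gave -0.05, -0.18 and -0.26. On the last, ILMN_2625747, the groups did not overlap, with TAT-CRE lower (adjusted p 0.399). It read 368.9, 376.3 and 332.1 in TAT-CRE cells and 460.5, 395.8 and 378.7 in mock cells. Ncapg, a HEAT-repeat subunit, read 1335.9, 1237.3 and 1374.4 in TAT-CRE cells and 1596.3, 652.9 and 1502.6 in mock cells on its brightest probe (0.21, adjusted p 0.615), with mock 2 far below the other mock arrays. Its second probe did not repeat that low value, at 536.4, 515.1 and 536.5 in TAT-CRE cells and 539.9, 487.5 and 532.5 in mock cells.

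In condensin II, which stays in the nucleus through the cell cycle, Ncaph2 had the smallest adjusted p of the condensin genes. ILMN_2701501 read 1615.4, 1510.7 and 1795.8 in TAT-CRE cells and 1123.3, 1154.3 and 1229.9 in mock cells, without overlap (0.52, 95% interval 0.14 to 0.90, adjusted p 0.0655). ILMN_3009334 read 2311.9, 2435.2 and 2213.8 in TAT-CRE cells and 2104.4, 1312.3 and 1709.7 in mock cells (0.49, adjusted p 0.112), and passed without the block and without mock 1 (0.66, adjusted p 0.0390), whereas ILMN_2745532 gave -0.28 (adjusted p 0.442). So 2 of the 3 probes had positive differences of similar size and the third went the other way. Ncapd3 gave 0.08, and the 3 Ncapg2 probes gave -0.13, 0.37 and -0.12.

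SMC5/6 joins the SMC5 and SMC6 arms with NSE subunits, among them the SUMO ligase NSMCE2. None of its 10 tested probes passed, with a median of 0.05. On 2 of the 10 the groups did not overlap, TAT-CRE higher (20%, against 16.4% of all probes tested), and both read Smc5. ILMN_2695150 read 1861.9, 2116.0 and 1865.5 in TAT-CRE cells and 1717.7, 1601.2 and 1407.2 in mock cells (0.33, adjusted p 0.270). ILMN_2695149 read 1932.6, 1799.8 and 1806.0 in TAT-CRE cells and 1330.2, 1327.0 and 1575.0 in mock cells (0.42, adjusted p 0.15). Smc6, the partner of SMC5 in the arms, was nearly level on its brightest probe, at 1189.1, 1168.7 and 1187.1 in TAT-CRE cells and 1129.7, 1181.6 and 1164.1 in mock cells (0.03, 95% interval -0.35 to 0.41), and its other tested probe gave -0.07.

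The brightest Nsmce2 probe rested on mouse 1. It read 2834.4, 2353.4 and 2224.5 in TAT-CRE cells and 771.5, 2349.2 and 2458.0 in mock cells (0.62, adjusted p 0.192), so mock 1 alone was low. Without mouse 1 the difference was -0.07, while it passed without mouse 2 (0.93, adjusted p 0.0013) or mouse 3 (1.01, adjusted p 0.0062). Mice 1, 2 and 3 gave 2.01, 0.003 and -0.15. Both passing fits thus joined mouse 1 with a mouse that did not share its difference, and their adjusted p does not show agreement between mice. The other 3 Nsmce2 probes gave -0.02, -0.01 and 0.07. Nsmce1 gave 0.21 and Nsmce4a -0.00 (adjusted p 0.494 and 0.994). Smchd1, whose product helps to silence the inactive X chromosome, gave 0.02, 0.29 and -0.00 on 3 tested probes, none past the threshold.

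**Figure D3:**
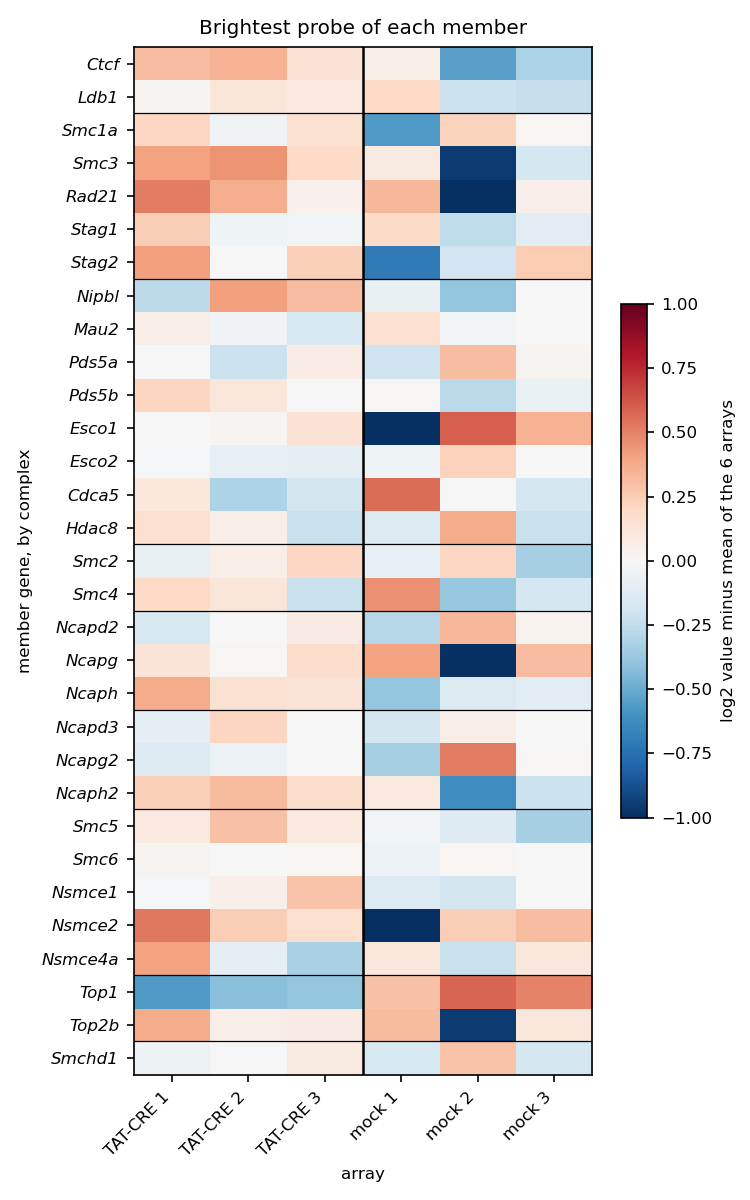
Log2 value of the brightest probe of each member on each array, minus the mean of its 6 arrays, with TAT-CRE arrays left of mock arrays and lines between complexes. Colours end at -1 and 1. Top1 is low on all 3 TAT-CRE arrays, and single mock arrays stand out elsewhere, as mock 2 for Rad21 and mock 1 for Nsmce2.

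The member values varied more among mock than among TAT-CRE arrays, as the whole array did: the median SD over member probes was 0.125 in TAT-CRE and 0.238 in mock cells, against 0.154 and 0.234 over all probes tested. Among the 3 mock arrays, mock 2 was lowest on 32 of 70 member probes (45.7%, against 36.0% of all probes), mock 1 on 23 (32.9%, against 37.0%) and mock 3 on 15 (21.4%, against 27.0%). Of 19 members with at least 2 tested probes, Top1 alone (5.26%) had all of them called, all lower. Among the 3878 such genes on the array, 121 (3.12%) had all of them lower and 69 had all of them higher. Smc3 and Nipbl (10.5% of the 19) had some called and others not, as did 701 of the 3878 (18.1%).

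Other genes of these pathways were counted in 4 lists. Of 31 tested probes for cohesion control and replication, 2 rose (6.45%, against 6.55% of all probes tested) and 0 fell. They read Stag3, a cohesin subunit known from meiosis (318.3, 236.7 and 278.4 in TAT-CRE cells, 217.5, 192.7 and 228.8 in mock cells, 0.61, adjusted p 0.0364, and 0.0684 without the replicate block), and Ppp2r5c, a PP2A regulatory subunit (0.61, adjusted p 0.0364), whose other 3 tested probes gave -0.30, -0.22 and 0.11. Of 26 tested probes for loop and boundary partners, 1 rose (3.85%, against 6.55% of all) and 2 fell (7.69%, against 7.14% of all). The CTCF-binding remodeller gene Chd8 rose (1020.5, 1002.0 and 1145.3 in TAT-CRE cells, 732.1, 606.8 and 770.0 in mock cells, 0.67, adjusted p 0.0213). Ssbp2, whose product binds LDB1, fell on 1 probe (-0.66, adjusted p 0.0207) and stood at -0.00 on the other, and the zinc finger gene Patz1 fell on 1 probe (-0.58, adjusted p 0.0482, and 0.0583 without the replicate block) with -0.42 on the other. Among 12 tested probes for partners of condensin and SMC5/6 and 15 for other topoisomerases and repair genes, 0 passed, with 1 higher and 1 lower in each list at an unadjusted p under 0.05 (8.33% each way in the first and 6.67% in the second, against 13.2% higher and 14% lower of all probes).

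**Figure D4:**
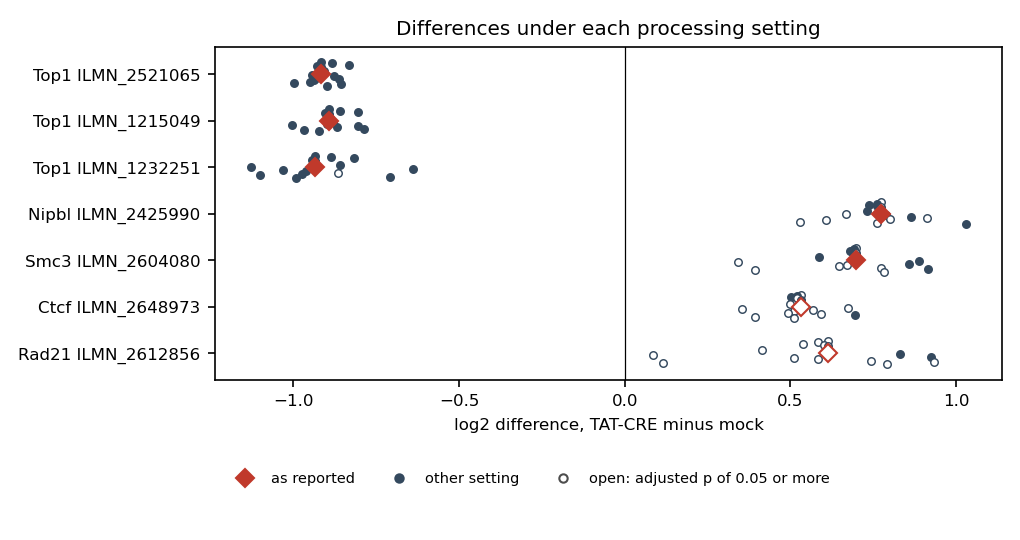
Log2 difference (TAT-CRE minus mock) of 7 member probes as reported (diamonds) and under each other setting (circles), filled where the adjusted p was under 0.05. The Top1 probes stay between -1.13 and -0.64 and are open in 1 setting of ILMN_1232251 only, the Smc3 and Nipbl probes keep their sign but are often open, and Rad21 spreads from 0.086 to 0.93.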

How the data were processed

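RNA of 6 cultures was read on Illumina arrays, 1 array each. The deposited table holds the authors' linear intensity for 45281 probes, and the submitters' processing notes name GenomeStudio 1.8. Once sorted, the columns agree to within 2.1, so the values had been quantile normalized before deposit, and medians of 161.4 to 161.5 show that background was still in them. In a second deposited table the names of 12 columns could not be tied to a sample, and none was used. The intensities were background corrected by normexp (offset 16), then quantile normalized and put on the log2 scale with limma 3.58.1 (R 4.3.3). Normexp ran without negative control probes.

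A probe was tested if it was above the 95th percentile of 1504 olfactory and vomeronasal receptor probes of its array on at least 3 of 6 arrays (limits of 169.2 to 178.2). Probe genes came from GEO's platform annotation (34885 probes with 1 gene, 18 with several, 10378 with none). By Entrez identifier, 34807 probes were matched to RefSeq on GRCm38.p6. The build behind the annotation is not stated in it. Groups came from titles. The fit of TAT-CRE against mock used lmFit and eBayes with the mouse as a fixed block, two-sided, Benjamini-Hochberg over 19240 probes, threshold 0.05. Pairing comes from the labels, which divide each spleen between both treatments; deviations from group means of same-numbered arrays correlated at 0.119, 0.0255 and 0.0539. With the mouse as a block, p-values measure how far the difference between TAT-CRE and mock varied among 3 mice. The eBayes step draws the variance of each probe toward that of all probes tested. The p-values and intervals therefore rest partly on other probes, and not only on how well the mice agreed on that probe.

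The members and lists were chosen with earlier results of these data known. Every member is named with the differences of its tested probes, singly or as a range, and arrays are given in full for called probes and for many of the brightest ones; dimmer probes given in full were picked after their values were seen. The other genes named are the called ones of 4 pathway lists. A bound sets the mock mean against the lowest value above background on each TAT-CRE array, in normalized log2. Alternatives covered the block, background correction, normalization, filter, variance model, array weights, 1 probe per gene, and each mouse or array left out. Figures used matplotlib 3.10.9 in Python 3.11.15.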

Additional observations from a re-analysis of the deposited data

How the results depend on the processing

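The 3 Top1 probes kept their sign in every alternative and their call in every one but the fit without the replicate block and the TAT-CRE array of mouse 2, where ILMN_1232251 did not pass (adjusted p 0.0583). Smc3 ILMN_2604080 passed in 11 of 19 alternatives (0.34 to 0.91, adjusted p 0.00516 to 0.369) and Nipbl ILMN_2425990 in 10 of 18 (0.53 to 1.03, adjusted p 0.00291 to 0.224). The count of member probes higher, 2 as reported, was 0 without the replicate block (against 6.16% of all probes) and 0 with no filter on dim probes. It was 4 with an offset of 50, 4 with no background correction, 4 with the trended robust variance and 1 with 1 probe per gene. For these last settings the count of all probes higher is not given here, so a shift of the members cannot be told from a general one. With 1 probe per gene, 1 member was lower and the member median was 0.13. With 1 probe per gene 887 probes of all were lower, and with no filter 497 were higher and 585 lower. Leaving out a mouse or an array gave 0 to 4 members higher, 555 to 1248 probes higher and 610 to 1349 lower, with fewer arrays in each fit. The cause of the shifts between settings was not tested.

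Alternatives were recomputed probe by probe for 41 of the 70 tested member probes, the brightest of each gene and every tested probe of Top1, Smc3 and Nipbl. The sign turned for 15 of these 41, none of them called as reported, and no turned value passed (smallest adjusted p 0.144). With an offset of 50 Nsmce4a stood at 0.0011, with no background correction at 0.0038, and with array weights Hdac8 ILMN_2871174 stood at 0.0086. Leaving out a mouse or an array gave -0.21 to 0.21 for Nsmce4a, -0.16 to 0.18 for Hdac8, -0.060 to 0.46 for Smc1a, -0.41 to 0.46 for Esco1, -0.074 to 1.01 for Nsmce2, -0.10 to 0.18 for Smchd1 and -0.24 to 0.12 for Pds5a. The same ranges were -0.15 to 0.31 for Smc4, -0.21 to 0.10 for Ncapd2, -0.25 to 0.46 for Ncapg, -0.33 to 0.10 for Ncapg2, -0.030 to 0.25 for Nipbl ILMN_3124374, -0.070 to 0.27 for Smc2, -0.0081 to 0.14 for Ncapd3 and -0.045 to 0.59 for Top2b. The setting that tests only probes with 1 gene name was added after the data were seen. Signal over background limits the dimmer probes: 14 of 84 member probes were too dim to test.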
